A study of Mus musculus with 6 samples.

Results

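The tetraspanins are a family of small membrane proteins, and 28 of the 17606 genes in the deposited table belong to it by symbol. The members were chosen by name, as every gene called Tspan followed by a number together with Cd9, Cd37, Cd53, Cd63, Cd81, Cd82, Cd151, Upk1b and Prph2. The family itself was selected on the rise of Tspan11 in these same libraries, so Tspan11 is described here without a test, and counts of changed members leave it out. Tspan10 is not analysed here. Upk1a and Rom1 also belong to the family but lie outside the list of symbols. They are described apart.

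A tetraspanin crosses the membrane 4 times and exposes a small and a large loop on the outside, the large one holding a cysteine motif shared by the family. Tetraspanins bind integrins, immunoglobulin-domain proteins, metalloproteases and one another, and gather them into membrane microdomains that set how these partners traffic, signal and adhere. Cd9, Cd63 and Cd81 are also the usual markers of extracellular vesicles. Keratocytes, the quiescent stromal cells that make the transparent collagen matrix of the cornea, touch that matrix and each other through such membrane complexes.

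RNA was measured in sorted corneal keratocytes from 3 control libraries and 3 libraries labelled as Ptch1-ablated. The ablated mice carried Prrx1-CreERT, a tamoxifen-inducible Cre knocked into a gene of ocular mesenchyme, and floxed Ptch1 alleles (Ptch1 f/f), whose product, the Hedgehog receptor Patched 1, holds the pathway off. All mice were 10 weeks old and received 3 doses of tamoxifen, with an interval of 1 month per the labels, so both groups share the drug. The alleles carried by the controls, and whether mice were pooled, were not given in the sources used here, and Prrx1-CreERT also recombines in corneal endothelium and other eye mesenchyme. If replicates are not separate animals, the p-values measure only the spread between these samples.

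Ptch1 itself was at 2.19, 1.53 and 4.67 TPM (a level scaled by transcript length and library size) in the controls and at 59.8, 76.1 and 78.5 TPM in the ablated libraries. A gene total of this kind also counts exons outside a deleted stretch, so it does not show whether Ptch1 was deleted. The Hedgehog target Gli1 was at 0.03 to 0.94 TPM in the controls and at 80.5 to 92.0 TPM in the ablated libraries, with no overlap. Totals ranged from 20258439 to 24788063 counts per library. Keratocyte genes made up 103050 to 118851 TPM in the controls and 80031 to 96044 TPM in the ablated libraries, summed over 8 markers, which included keratocan (Kera), lumican and decorin. Lumican and decorin overlapped between the groups, and the other markers lay lower in every ablated library. Kera was at 14566 to 17140 TPM in the controls and 5006 to 7107 TPM in the ablated libraries. Aldh3a1 fell less, from 30662 to 33579 TPM to 23153 to 25726 TPM.

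Other cell types left traces in both groups, as the plot of marker lists shows. The 12 epithelial markers summed to 114 to 129 TPM in the controls and 9.50 to 16.7 TPM in the ablated libraries, while their corneal keratin Krt12 went the other way, at 0 in every control and at 1.26, 3.14 and 3.23 TPM in the ablated libraries. The 9 vascular endothelial markers summed to 341 to 432 TPM in the controls and 676 to 730 TPM in the ablated libraries, a ratio of means of 1.77. Kdr, the most abundant of them, did not rise, with mean TPM of 195 in the controls and 171 in the ablated libraries. The other markers of that list lay higher in every ablated library. The 8 mural cell markers, for pericytes and smooth muscle, summed to 181 to 189 TPM and 398 to 410 TPM, a ratio of 2.2. Rgs5 made up most of both sums, at 117 to 125 TPM and 235 to 274 TPM. Cspg4, Abcc9 and Myh11 overlapped between the groups, and the rest of the mural list lay higher in every ablated library. The 11 leukocyte markers summed to 3610.0 to 4016 TPM and 5635 to 6693 TPM, most of it Cd74. The 8 Schwann cell markers summed to 154 to 172 TPM and 221 to 239 TPM, and the 4 corneal endothelial markers to 372 to 422 TPM and 302 to 490.4 TPM. Col8a2 made up most of the corneal endothelial sum, and it and Slc4a4 overlapped between the groups. Col8a1 lay higher in every ablated library, at 17.5 to 24.8 TPM against 3.42 to 3.67 TPM. So did Slc4a11, at 12.7 to 19.9 TPM against 0.70 to 6.08 TPM. The 6 melanocyte and 6 photoreceptor markers stayed under 6 TPM in sum in every library, with Slc45a2 at 0 in every control and Dct and Nrl at 0 in every ablated library. In sorted bulk samples, fewer cells of a type and less RNA per cell cannot be told apart.

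**Figure D1:**
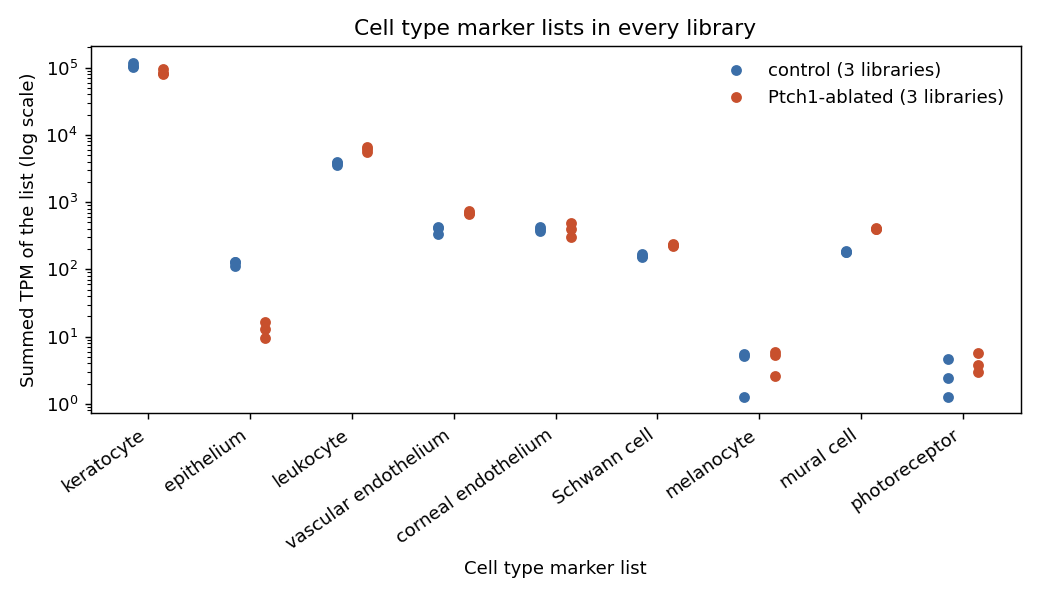
Summed TPM of each cell type marker list (log scale) in the 3 control (blue) and 3 Ptch1-ablated (orange) libraries, 1 point per library. Vascular endothelial, mural cell, leukocyte and Schwann cell sums lay higher in all 3 ablated libraries. Epithelial sums lay between 9.50 and 16.7 TPM there, against 114 to 129 TPM in the controls.

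Tspan11 (Entrez 68498) was all but undetected in the controls and moderately abundant after ablation. It had 1, 0 and 0 counts in the control libraries and 1157, 787 and 1282 counts in the ablated libraries. Its level was 0.02, 0 and 0 TPM in the controls and 26.8, 19.2 and 27.2 TPM after ablation, so the groups were far apart. On the CPM scale (counts per 1000000 counts of a library), the ablated mean was 44.8 ± 9.90 (SD, n = 3), at least 284-fold above the 0.158 CPM that 3 counts would make in the shallowest control. Within the family Tspan11 stood 27th of 28 by mean TPM in the controls and 17th in the ablated libraries, where 68.1% of all genes in the table had a lower mean. These values are the ones that chose the family, and they carry no test.

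The 250 bases upstream of the annotated start of Tspan11 are shown because the gene was all but undetected in the controls and the Hedgehog pathway acts through the GLI transcription factors. They lie at chr6:127887372-127887621 on the plus strand of GRCm38.p6, in the promoter window of RefSeq, outside the transcribed part of the gene. Capitals mark the stretch TGGGTGG, the first 7 letters of the GLI consensus TGGGTGGTC.

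Tspan11 upstream: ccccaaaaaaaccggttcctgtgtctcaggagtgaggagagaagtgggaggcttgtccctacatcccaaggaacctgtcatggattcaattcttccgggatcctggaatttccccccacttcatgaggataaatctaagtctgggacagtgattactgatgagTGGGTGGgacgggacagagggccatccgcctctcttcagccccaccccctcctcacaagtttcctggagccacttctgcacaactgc

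The 7-letter stretch lay on the gene's own strand, 80 bases before the start. The full 9-letter consensus, searched on both strands of the 300-base RefSeq windows, was in 0 of 36 windows of 26 members and in 0.253% of all 32851 windows. The 7-letter form, which is contained in the longer motif and was chosen after the longer one had given no match, was in 7 of the 36 windows (19.4%), of Cd81, Cd82, Tspan1, Tspan11, Tspan14, Tspan31 and Tspan32, and in 9.30% of all windows. A match of letters is a description of the sequence and shows no binding. Tspan18 and Upk1b had no window.

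The family was led in both groups by the vesicle and integrin-associated members Cd63, Cd81 and Cd9. Cd63, which cycles between lysosomes, multivesicular endosomes and the surface, was at 2869, 2947 and 2551 TPM in the controls. Cd81, which escorts other receptors to the surface, was at 2393, 2703 and 1926 TPM there, and Cd9, a partner of immunoglobulin-domain proteins and of membrane fusion, was at 733, 794 and 699 TPM. Tspan4, Tspan3 and Tspan31 followed at 216 to 454 TPM in the controls, and Tspan17 and Tspan7 at 89.4 to 137 TPM. The remaining 20 members had control means below that. The levels spanned the whole scale from Cd63 to Tspan33, which had 0 counts in every control, as the plot of levels shows. The order was not sharp: the library ranges of neighbours in rank overlapped for 18 of 27 neighbouring pairs in the controls and 20 of 27 in the ablated libraries.

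**Figure D2:**
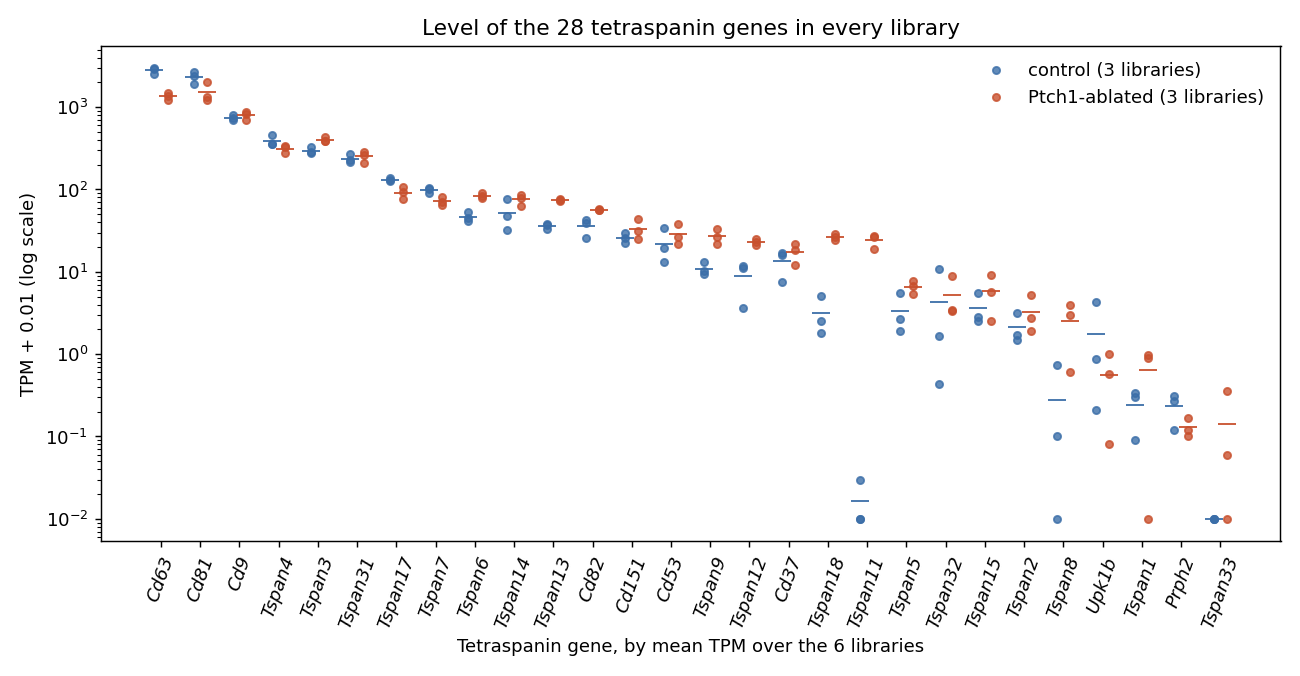
TPM of the 28 tetraspanin genes (log scale, with 0.01 added so that values of 0 appear at the bottom) in the 3 control (blue) and 3 Ptch1-ablated (orange) libraries, with dashes for group means and genes ordered by mean TPM. Tspan11 lay at 0 to 0.02 TPM in the controls and at 19.2 to 27.2 TPM after ablation, next to Tspan18, while Cd63 and Cd81 led in both groups.

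Tspan18 had the largest fitted rise among the other tested members. This tetraspanin is known from endothelial cells, where it regulates calcium entry through Orai1. Its level was 1.81, 2.53 and 5.03 TPM in the controls and 24.2, 26.4 and 28.6 TPM in the ablated libraries, with no overlap. On the edgeR scale it rose by 2.89 ± 0.35 log2 units (SE, 95% interval 2.13 to 3.66, edgeR adjusted p = 0.000206), a 7.44-fold change from 5.38 ± 2.64 to 40.1 ± 4.61 CPM (SD, n = 3). The call held in all 15 alternative analyses, with log2 changes of 2.64 to 3.37. The summed TPM of the 9 vascular endothelial markers was 1.77 times the control mean in the same ablated libraries, and their part in the rise of Tspan18 was not tested.

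Tspan9, which is abundant in megakaryocytes and platelets and sits in the collagen receptor microdomains of platelets, also passed both thresholds. It was at 10.2, 9.29 and 13.2 TPM in the controls and at 33.1, 26.4 and 21.5 TPM in the ablated libraries, again without overlap. Its fitted log2 change was 1.10 ± 0.24 (95% interval 0.57 to 1.63, edgeR adjusted p = 0.0141). The call was lost without control 2 (log2 change 1.01, adjusted p = 0.0674) and without ablated 1, the highest of the libraries (0.91, adjusted p = 0.0818).

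Tspan13 passed the adjusted p but not the fold threshold. It was at 37.1, 37.7 and 33.2 TPM in the controls and at 74.5, 76.9 and 72.4 TPM in the ablated libraries, which were tightly grouped. The change was 0.84 ± 0.19 on the log2 scale (95% interval 0.42 to 1.25, edgeR adjusted p = 0.0165). Leaving out control 2, control 3, ablated 1 or ablated 3 gave log2 changes of 0.88, 0.77, 0.83 and 0.83, with adjusted p values of 0.0522, 0.0583, 0.0616 and 0.0665.

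Tspan12 and Tspan6 lay higher in every ablated library without passing the test. Tspan12 is a co-receptor of Norrin, with Fzd4 and Lrp5, in retinal vessels. It was at 3.58, 11.8 and 11 TPM in the controls and at 24.8, 23.2 and 21.4 TPM in the ablated libraries, control 1 being the lowest. Its log2 change was 1.19 ± 0.40 (95% interval 0.32 to 2.07, edgeR adjusted p = 0.0992), and it passed with DESeq2 (log2 change 1.2, adjusted p = 0.0396, in a range of 0.0263 to 0.233 over the alternatives). Under library totals alone and both limma settings it passed as well. Tspan6, which is linked to endosomal sorting, was at 41.0, 45.1 and 53.4 TPM in the controls and at 79.3, 82.8 and 89.7 TPM in the ablated libraries. The log2 change of Tspan6 was 0.64 (95% interval 0.22 to 1.07, edgeR adjusted p = 0.0667), and it passed with DESeq2 (adjusted p = 0.0221), under library totals alone (0.0187) and with limma on TPM at pseudocounts of 1 and 0.1 (0.00675 and 0.00868), in a range up to 0.225. The sums of the vascular, mural cell, leukocyte and Schwann cell markers were higher in the same libraries. Whether they bear on Tspan9, Tspan12, Tspan13 or Tspan6 was not tested.

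Cd63 fell more than 2-fold from the first place in the family. It was at 1235, 1351 and 1482 TPM in the ablated libraries, all below the lowest control. Its log2 change was -1.25 ± 0.13 (95% interval -1.54 to -0.96, edgeR adjusted p = 7.61e-05), from 938 ± 89.8 to 394 ± 47.3 CPM (SD, n = 3), and it kept its call in all 15 alternative analyses, with log2 changes of -1.36 to -1.04.

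Cd81, Tspan17 and Tspan7 passed the adjusted p at smaller folds. Cd81 was at 2042, 1226 and 1323 TPM in the ablated libraries, so that ablated 1 lay above control 3 in TPM, while the groups did not overlap in CPM. Its log2 change was -0.82 ± 0.20 (95% interval -1.26 to -0.38, edgeR adjusted p = 0.0253). Without control 1, control 2, ablated 2 or ablated 3 the log2 change was -0.80, -0.70, -0.65 and -0.75, and the adjusted p rose to 0.0523, 0.114, 0.0973 and 0.103. Without ablated 1 the log2 change passed 2-fold, at -1.10.

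Tspan17 belongs to the TspanC8 group, which carries the protease Adam10 to the surface. It was at 127, 132 and 137 TPM in the controls and at 107, 92.6 and 75.7 TPM in the ablated libraries, without overlap. The fitted log2 change was -0.73 ± 0.18 (95% interval -1.13 to -0.34, edgeR adjusted p = 0.0257). The test was no longer passed without control 2, control 3, ablated 2 or ablated 3, at log2 changes of -0.72, -0.72, -0.69 and -0.64 and adjusted p values of 0.0909, 0.0672, 0.0828 and 0.106.

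Tspan7, best known from neurons, was at 89.4, 99.9 and 105 TPM in the controls and at 81.8, 64.3 and 69.7 TPM in the ablated libraries. Its log2 change was -0.66 ± 0.18 (95% interval -1.05 to -0.26, edgeR adjusted p = 0.0467). It rested on all 6 libraries, since leaving out any 1 of them gave log2 changes of -0.76 to -0.54 and adjusted p values of 0.0589 to 0.143.

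**Figure D3:**
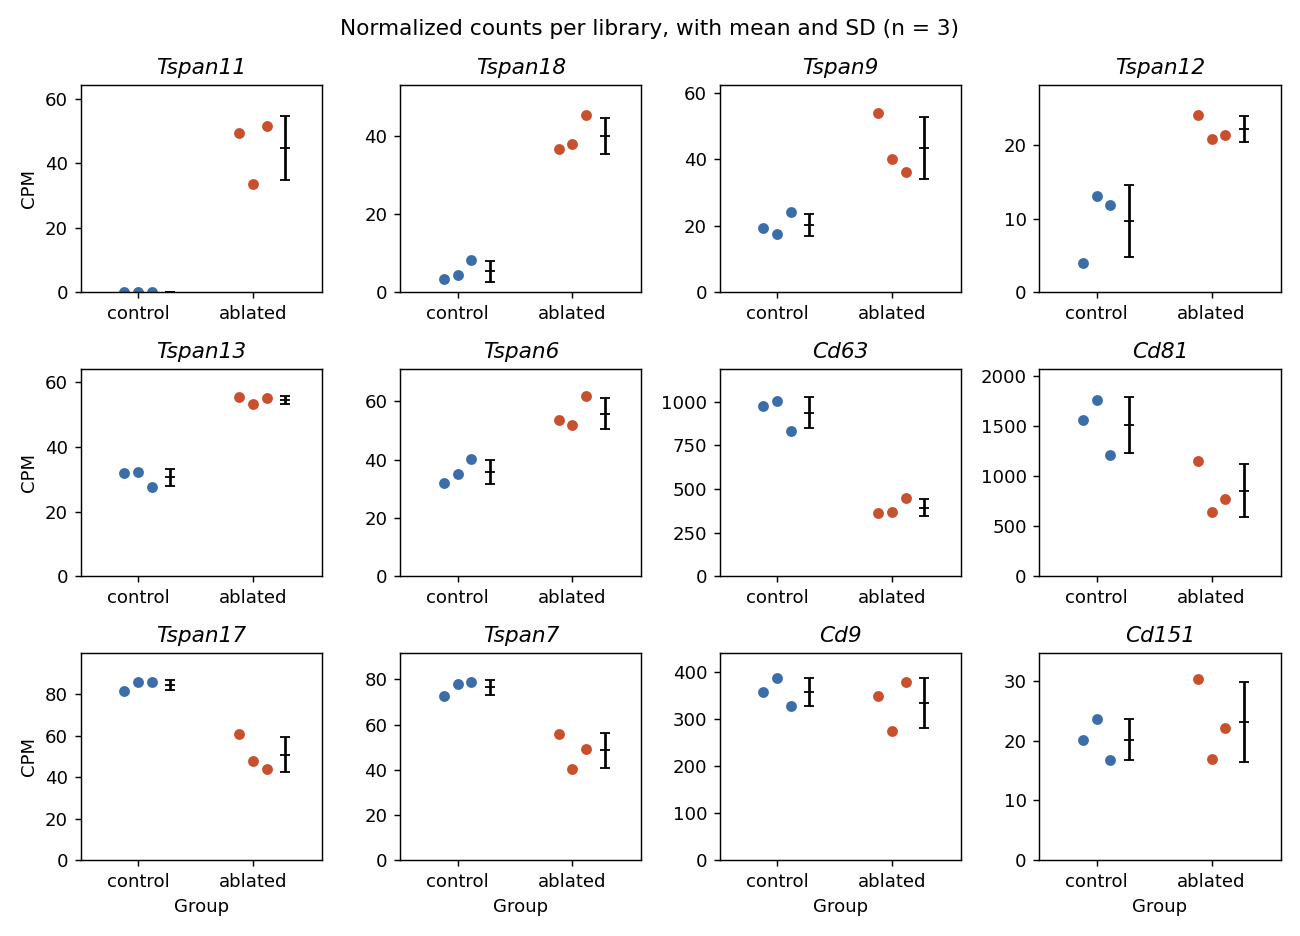
Normalized counts (CPM, linear axes from 0) of 12 tetraspanin genes in the 3 control (blue) and 3 Ptch1-ablated (orange) libraries, with the group mean and SD in black (n = 3). The ablated libraries lay above all controls for Tspan11, Tspan18, Tspan9, Tspan12, Tspan13 and Tspan6 and below them for Cd63, Cd81, Tspan17 and Tspan7, while Cd9 and Cd151 overlapped.

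Counted over the family, 25 of the 28 members had enough reads to be tested, 24 of them without Tspan11, which passed the low-count filter through its ablated libraries alone. Of these 24, 2 were called higher (Tspan18 and Tspan9) and 1 lower (Cd63), at thresholds of 2-fold and an edgeR adjusted p up to 0.05. Over all genes in the fit, 3.36% of those tested were called higher and 2.13% lower. At the adjusted p alone, 3 members passed higher (Tspan18, Tspan9 and Tspan13) and 4 lower (Cd63, Cd81, Tspan17 and Tspan7), where 4.68% of all genes passed higher and 3.80% lower. That split moved with scalings that shift the median log2 change of all genes by 0.17 to 0.22: 5 passed higher and 1 lower under library totals alone, 6 and 2 with limma on log2(TPM + 1), and 6 and 1 with limma on log2(TPM + 0.1), and Cd63 was the member lower in all of these, with Cd81 beside it on log2(TPM + 1). The calls were 4 higher and 1 lower in each of the 3. The groups did not overlap in CPM for 11 of the 24 members, 6 higher and 5 lower, against 27.4% of all genes. The median fitted log2 change was 0.21, beside 0.0046 over all genes, with 16 members above 0 and 8 below.

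**Figure D4:**
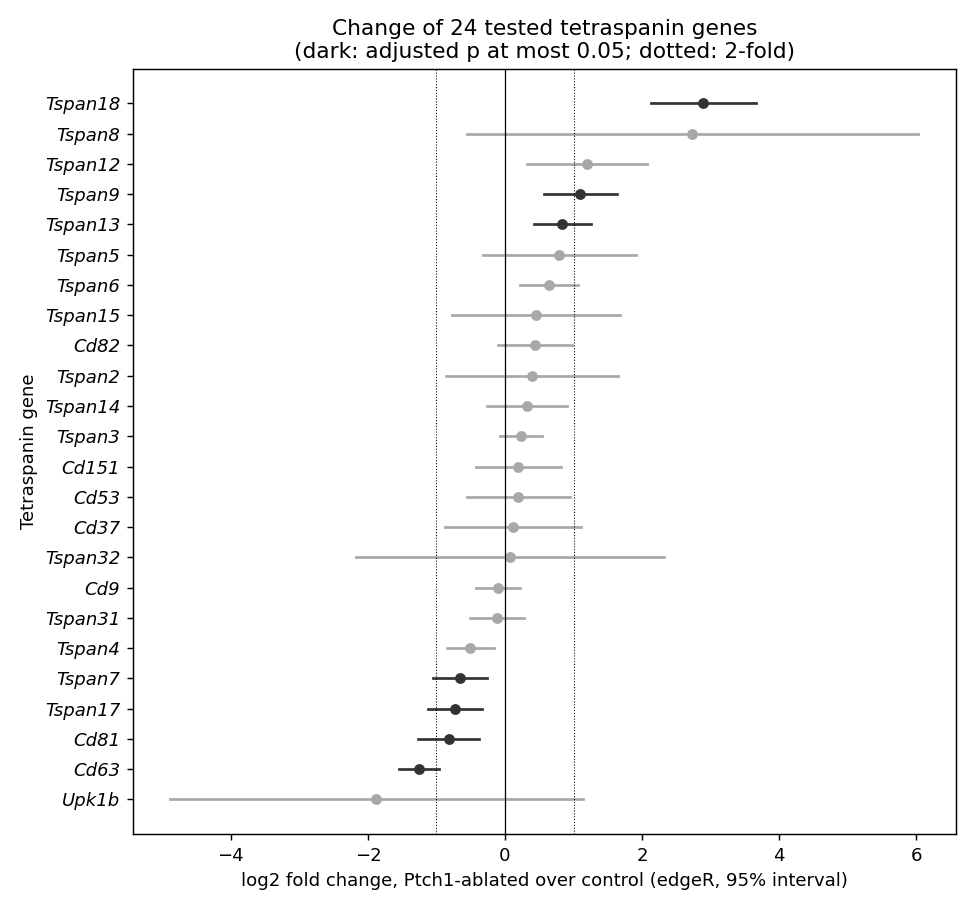
Log2 fold change of Ptch1-ablated over control libraries (edgeR, with 95% interval) for the 24 tested tetraspanin genes other than Tspan11, dark where the adjusted p was at most 0.05. Tspan18, Tspan9 and Tspan13 passed above 0 and Cd63, Cd81, Tspan17 and Tspan7 below it, and the widest intervals belonged to the sparsely counted Tspan8, Upk1b and Tspan32.

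The abundant Cd9 gave a narrow interval around 0. It was at 827, 701 and 870.3 TPM in the ablated libraries, which overlapped the controls, and its log2 change was -0.10 (95% interval -0.42 to 0.22, edgeR adjusted p = 0.784), with a sign that changed under other scalings. Tspan4, a driver of migrasomes, the vesicle-filled structures left on retraction fibres, was at 354, 454 and 360.1 TPM in the controls and at 278, 335 and 328 TPM in the ablated libraries. Its log2 change of -0.51 (95% interval -0.85 to -0.16) had an edgeR adjusted p of 0.0757, and it passed with DESeq2 (-0.50, adjusted p = 0.0169, the highest over the alternatives being 0.310). Tspan4 overlaps Chid1 on the opposite strand, whose own log2 change was -0.91 (edgeR adjusted p = 0.0123), and reads of the 2 genes cannot be told apart without strand, which is not given in the sources used here.

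Tspan3 was at 330.1, 283 and 278 TPM in the controls and at 437, 384 and 391 TPM in the ablated libraries, so that the levels did not overlap in TPM. In CPM the groups overlapped, and its log2 change was 0.23 (95% interval -0.08 to 0.54, edgeR adjusted p = 0.405). With limma on TPM at pseudocounts of 1 and 0.1 it passed (adjusted p = 0.0412 and 0.0465, with 0.676 the highest over the alternatives). Tspan31, which overlaps the cell cycle kinase gene Cdk4 on the other strand, was at 207 to 288 TPM over the 6 libraries, with a log2 change of -0.12 (95% interval -0.51 to 0.27, edgeR adjusted p = 0.790) whose sign also depended on the scaling. Cd82, named as a suppressor of metastasis, was at 42.6, 39.1 and 25.9 TPM in the controls and at 57.0, 57.2 and 56.4 TPM in the ablated libraries, a log2 change of 0.44 (95% interval -0.11 to 0.98, edgeR adjusted p = 0.368).

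The 3 nearest relatives of Tspan11 by protein sequence did not pass the test. Cd151, which binds the laminin-receptor integrins, shared 55.7% of its residues with Tspan11, Tspan2 33.9% and Cd53 33.3%, in global alignments of the proteins translated from the GENCODE M21 annotation. Tspan18, which was called higher, came next at 32.3%. The median identity to Tspan11 was 28.8%. Cd151 was at 25.8, 29.6 and 22.1 TPM in the controls and at 43.2, 24.9 and 31.4 TPM in the ablated libraries, overlapping, with a log2 change of 0.19 (95% interval -0.43 to 0.82, edgeR adjusted p = 0.780). Tspan2, a tetraspanin of myelinating glia, was at 1.47 to 3.18 TPM and 1.91 to 5.19 TPM, also overlapping. Among the closest pairs of the family, Tspan5 and Tspan17 shared 79.1%, Tspan6 and Tspan7 59.2%, Tspan13 and Tspan31 57.4%, and Tspan4 and Tspan9 55.9% of residues. In the pair of Tspan4 and Tspan9, only Tspan9 was called, and the difference between the changes was not tested.

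Of the 4 TspanC8 members tested, Tspan17 alone passed. Tspan14 was at 32.3 to 75.9 TPM in the controls and 63.5 to 85.8 TPM in the ablated libraries, with a log2 change of 0.32 (95% interval -0.27 to 0.90, edgeR adjusted p = 0.575). Tspan5 was at 1.89 to 5.55 TPM and 5.32 to 7.75 TPM, with a log2 change of 0.79 (95% interval -0.32 to 1.91, edgeR adjusted p = 0.436). Tspan15 was at 2.55 to 5.57 TPM and 2.52 to 9.18 TPM, with a log2 change of 0.45 (95% interval -0.77 to 1.68, edgeR adjusted p = 0.729). Adam10, the protease these members carry, was at 24.9, 28.7 and 43.7 TPM in the controls and at 40.5, 58.8 and 45.7 TPM in the ablated libraries, with overlap and a log2 change of 0.36 (95% interval -0.11 to 0.84, edgeR adjusted p = 0.395).

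The leukocyte tetraspanins Cd53, Cd37 and Tspan32 did not pass, while the sum of the 11 leukocyte markers lay higher in every ablated library. Cd53, present on most white blood cells, was at 13.1, 19.3 and 33.8 TPM in the controls and at 26.3, 21.6 and 38.3 TPM in the ablated libraries (log2 change 0.19, 95% interval -0.56 to 0.95, edgeR adjusted p = 0.826). Cd37, mainly a B cell protein, was at 7.48 to 17 TPM and 12.2 to 21.8 TPM (log2 change 0.12, 95% interval -0.87 to 1.10). Tspan32 was at 10.9, 1.65 and 0.42 TPM in the controls and at 3.30, 3.41 and 8.92 TPM in the ablated libraries, so its levels varied more within groups than between them. All 3 overlapped between the groups, and the pan-leukocyte marker Ptprc, at 11.5 to 24.2 TPM and 20.1 to 23.8 TPM, overlapped as well. Of the 10 leukocyte markers tested, 3 passed higher, Itgam, Cd74 and Laptm5, where 4.68% of all genes passed higher. Laptm5 was at 148 to 199 TPM in the controls and 272 to 369 TPM in the ablated libraries (edgeR adjusted p = 0.0144). Another 4 of the leukocyte markers were fitted below 0. Among these Tyrobp lay lower in every ablated library, at 80.7 to 134 TPM against 135 to 222 TPM in the controls. Its log2 change of -0.79 did not pass (edgeR adjusted p = 0.143).

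The rarest members were near the limit of detection. Tspan8, linked to epithelia and tumour vesicles, was counted 0, 9 and 1 times in control libraries and 33, 41 and 8 times after ablation, with a log2 change of 2.74 (95% interval -0.56 to 6.03, edgeR adjusted p = 0.347) that became 5.40 without control 2. Upk1b, a uroplakin of the bladder lining that also occurs in conjunctiva, was counted 72, 3 and 15 times in control libraries and 9, 1 and 17 times after ablation (log2 change -1.87, 95% interval -4.88 to 1.13, edgeR adjusted p = 0.508), and without control 1 its log2 change was -0.14. The epithelial marker sum was 114 to 129 TPM and 9.50 to 16.7 TPM in the same groups, and its part in the Upk1b counts was not tested. Tspan1 (0 to 15 counts), Prph2 of photoreceptor discs (2 to 7 counts) and Tspan33 (0 to 7 counts) were not tested.

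The 2 family genes outside the list of symbols did not pass the test. Upk1a was counted 0, 0 and 43 times in control libraries and 17, 22 and 1 times after ablation, with all its control reads in 1 library. Rom1, the partner of Prph2, was at 11.3 to 17.3 TPM in the controls and 13.5 to 18.1 TPM in the ablated libraries, with an edgeR adjusted p of 0.971.

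The summed level of the family was lower after ablation, and Cd63 and Cd81 made up the fall. The 28 members summed to 7296 ± 706 TPM in the controls and 5315 ± 477 TPM in the ablated libraries (SD, n = 3), with no overlap. Without Cd63 and Cd81 the sums were 2167 ± 112 and 2429 ± 137 TPM, which overlapped by 1 library. Both genes together held 70.2% ± 1.5 of the family's TPM in the controls and 54.2% ± 1.98 in the ablated libraries. The share of Cd63 was 38.3% ± 0.998 and 25.7% ± 3.84, and that of Cd9 was 10.2% ± 0.436 and 15% ± 1.21. Tspan3 went from 4.09% ± 0.466 to 7.62% ± 0.280 of the sum, and Tspan11 reached 0.457% ± 0.0591 in the ablated libraries. Shares of 1 sum are tied to each other, so no test was run on them. A 2-sided exact permutation test of 3 against 3 libraries cannot give a p below 0.1.

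**Figure D5:**
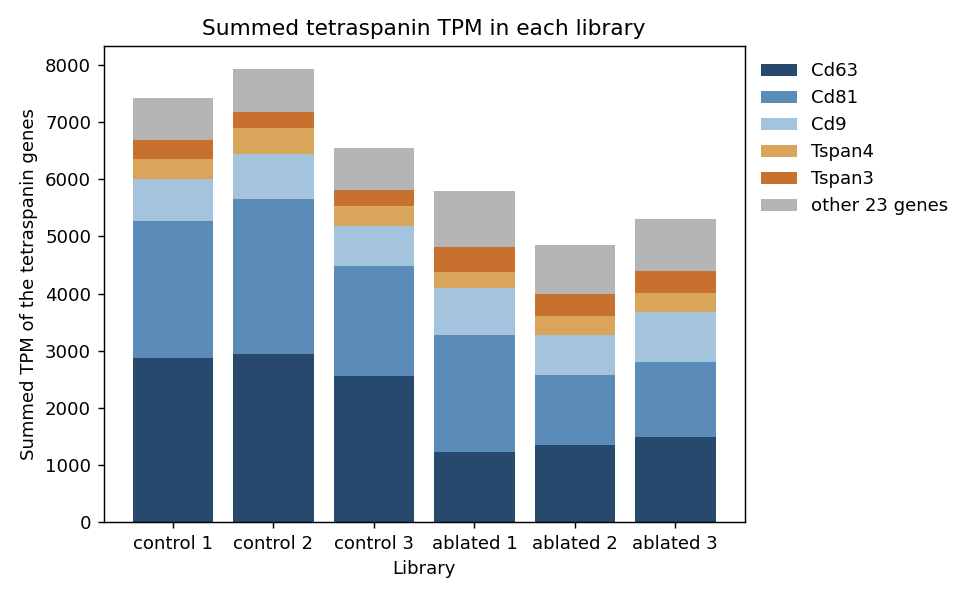
Summed TPM of the 28 tetraspanin genes in each library (bars from 0), divided into the 5 genes with the highest mean TPM and the other 23 together. The sums lay between 6537 and 7934 TPM in the controls and between 4849 and 5802 TPM in the ablated libraries, with smaller segments for Cd63.

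A list of 48 genes whose products bind tetraspanins or work with them on endosomes was read in the same fit. Of these, 4 were called higher and 2 lower, beside 3.36% and 2.13% of all genes, 7 passed the adjusted p higher and 6 lower, beside 4.68% and 3.80%, and 35 did not pass, with a median log2 change of 0.025. Of the 4 called higher, 3 had at most 3 counts in every control and entered the test through their ablated libraries alone, so their levels are given without a test. The tight junction protein Cldn1, which pairs with Cd81 at the cell surface, rose from 3.00, 2.48 and 2.53 TPM to 32.5, 34.9 and 32.7 TPM (log2 change 3.43 ± 0.26, edgeR adjusted p = 5.32e-06). Cldn11, which forms a complex with Tspan3 in oligodendrocytes, had 0, 3 and 1 counts in the controls and was at 26.2, 30.9 and 26.1 TPM in the ablated libraries, at least 124-fold higher. Neither claudin overlapped between the groups, and both were tightly grouped in the ablated libraries.

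Of the other genes called higher, Ndp was sparse. Ndp, the Norrin ligand that Tspan12 helps to receive, had 0 counts in every control and was at 1.14, 5.72 and 2.25 TPM in the ablated libraries, at least 13.9-fold higher, with most of its counts in ablated 2. Its receptors Fzd4 and Lrp5 overlapped between the groups, with log2 changes of 0.31 (95% interval -0.35 to 0.97) and 0.85 (95% interval -0.54 to 2.24).

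Among integrins and other surface partners the changes went both ways. The integrin chain Itga4 fell from 15.9, 10.5 and 12.4 TPM to 3.46, 6.60 and 5.49 TPM (log2 change -1.54 ± 0.27, edgeR adjusted p = 0.00307). Among laminin-receptor chains that pair with Cd151, Itgb4 of hemidesmosomes passed higher at 0.87 (edgeR adjusted p = 0.0190). Itga3, Itga6 and Itgb1 did not pass, with log2 changes of 0.28, 0.44 and -0.25. The direct Cd9 and Cd81 partners Igsf8 and Ptgfrn did not pass either, at -0.18 (95% interval -0.55 to 0.18) and 0.49 (95% interval -0.01 to 1.00). The proteases Mmp14 and Adam17 passed higher at 0.87 (edgeR adjusted p = 0.00850) and 0.73 (edgeR adjusted p = 0.0362), with Adam17 at 18.6, 28.4 and 25.1 TPM in the controls and 48.7, 46.2 and 44.4 TPM in the ablated libraries. The Adam17 test was not passed without control 1, control 3 or any 1 ablated library (adjusted p values of 0.0653 to 0.121). Syndecan-1 (Sdc1), the hyaluronan receptor Cd44 and the interferon-induced Ifitm2 passed lower at -0.97, -0.71 and -0.94 (edgeR adjusted p values of 0.00133, 0.00609 and 0.00147).

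Among the 15 vesicle and endosome genes of that list, 2 passed the adjusted p, both lower, where 3.80% of all genes passed lower. Lamp1, a lysosomal membrane protein that shares compartments with Cd63, fell from 273, 195 and 150.1 TPM to 128, 88.1 and 84.6 TPM (log2 change -1.25 ± 0.24, edgeR adjusted p = 0.00634), and without control 1 its log2 change of -0.98 was under 2-fold. Flot1, a lipid-raft protein, passed at -0.65 (edgeR adjusted p = 0.0136). Lamp2, also lysosomal, did not pass (log2 change -0.29, edgeR adjusted p = 0.255). It was at 406 to 474 TPM in the controls and 380 to 497 TPM in the ablated libraries, overlapping in TPM but not in CPM. The genes for vesicle budding in the list, such as Tsg101, Hgs and Pdcd6ip, did not pass, and Tsg101 was at 95.3 to 107 TPM in the controls and 104 to 128 TPM in the ablated libraries.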

How the data were processed

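RNA of sorted keratocytes was sequenced in 6 libraries, grouped by their titles. Per the submitters' processing notes, the authors aligned reads with Bowtie2 (2.2.5) to mm9 and quantified genes with RSEM (1.2.12). The deposited table holds RSEM expected counts (not normalized; 18.6% not whole, since RSEM splits shared reads, here for Tspan4, Tspan15 and Cd81) with TPM and FPKM values, which the authors scaled for length and library (FPKM were not used). The labels name a TruSeq kit and the study's methods ribosomal RNA depletion.

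Expected counts were rounded, filtered with filterByExpr (13888 of 17606 genes tested), scaled by TMM and compared with edgeR (4.0.16; quasi-likelihood, two-sided, no covariates, R 4.3.3), and p-values were adjusted by Benjamini-Hochberg across the whole table. Called means at least 2-fold with an adjusted p up to 0.05. CPM are counts per 1000000 of the scaled total, and the floor is 3 counts (0.121 to 0.158 CPM, counting error only). The fit was tested on simulated data. No 2 libraries agreed within sampling noise. Identity used BLOSUM62 alignments of translated coding sequences.

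Members, lists and tests were chosen with earlier results of these data known. Named were Tspan11, members passing the adjusted p, the 12 with the highest mean TPM, untested members, the 3 closest to Tspan11, members of TspanC8 and leukocyte groups, Tspan12, Upk1b, Prph2, Upk1a, Rom1, called partners with Adam10, Adam17, Itga3, Itga6, Itgb1, Igsf8 and Ptgfrn, the Hedgehog genes and the cell markers. Tspan2, Tspan5, Tspan6, Tspan8, Cd82 and the other partners given with values were added for completeness. The values of 1 partner called higher are not reported here.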

Additional observations from a re-analysis of the deposited data

How the results depend on the processing

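Scaling by library totals alone, and limma (3.58.1) on log2(TPM + 1) or log2(TPM + 0.1), moved the median log2 change of all genes by 0.17, 0.19 and 0.22. Under each of these 3 the members called higher, counted without Tspan11, were 4 in place of 2, with Tspan12 and Tspan13 added. Relative to that shift Tspan12 was at 1.2, 1.25 and 1.35 and Tspan13 at 0.84, 0.85 and 0.84, so Tspan13 was below 2-fold there. With no fold minimum, 4 members were lower in place of 1, and 7 partners were higher in place of 4 and 6 lower in place of 2. Partners called higher were 2 with a mean count of at least 50, with the adjusted p limited to 0.01, and with the replicate block. Leaving out 1 library each, members called higher (without Tspan11) ranged from 1 to 2 and members called lower from 1 to 2. Partners called higher ranged from 2 to 5 and called lower from 2 to 4.

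No pairing by replicate number was seen: same-numbered libraries did not deviate together (r = -0.022, -0.063 and 0.039). So few libraries cannot show whether a batch was shared. With the replicate block Tspan17, Tspan7 and Adam17 had adjusted p values of 0.0527, 0.0839 and 0.0686.

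Of 596 values over 40 named genes and their alternatives, 521 kept direction and side of the threshold, 44 no longer passed, 11 newly passed and 20 reversed. Under library totals and both limma settings Cd9 was at 0.066, 0.10 and 0.10 and Tspan31 at 0.045, 0.079 and 0.080, against a shift of 0.17 to 0.22, and with limma Igsf8 was at 0.025 in both. With 1 library left out at a time the log2 change changed sign for Cd9 (-0.20 to 0.029) and Tspan31 (-0.23 to 0.043) without ablated 2, Cd151 (-0.045 to 0.38) without ablated 1, Cd53 (-0.11 to 0.61) without control 1 (-0.065) or ablated 3, Cd37 (-0.16 to 0.33) without control 3 or ablated 3 (-0.12), Tspan32 (-0.59 to 2.16) without control 2 (-0.31), control 3 (-0.47) or ablated 3, Tspan15 (-0.038 to 0.98) without ablated 1, and Tspan2 (-0.015 to 0.82) without ablated 2. None of these values passed the test in either direction, and the cause was not tested. Tspan8, Upk1b and Tspan32 had the widest intervals, beside low counts and a wide spread between libraries of 1 group.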
